A study of Mus musculus with 6 samples.

Results

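The trophectoderm is the outer epithelium of the blastocyst and the source of the placental trophoblast. It arises in the outer cells of the morula, where polarity keeps Hippo signalling low and lets the coactivator YAP and its DNA-binding partner TEAD4 switch on *Cdx2*, while *Gata3* is induced in parallel. *Tfap2c* acts at the same step and on epithelial genes, the keratins *Krt8* and *Krt18* give the first intermediate filaments of the outer cells, and *Eomes* and *Elf5* belong to the later trophoblast stem cell programme.

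The genes described are 10 trophectoderm lineage factors, *Cdx2*, *Gata3*, *Eomes*, *Tfap2c*, *Tfap2a*, *Gata2*, *Krt8*, *Krt18*, *Elf5* and *Id2*, taken by symbol from the 55364 genes of the deposited table. Their levels were measured by RNA-seq in BDF1 x BDF1 mouse morulae (BDF1 is the cross of C57BL/6N and DBA/2), cultured in KSOM after in vitro fertilization. Zygotes were injected in the cytoplasm with a control siRNA (control KD, 3 libraries) or with an siRNA against *Yy1*, which encodes a zinc finger transcription factor (*Yy1* KD, 3 libraries). Each library was made from 10 pooled whole morulae collected at 64 h after insemination, so that outer and inner cells were not separated and embryos of both sexes may share a library. Nothing in the labels says whether replicates came from separate fertilizations, so p-values measure the spread between these pools.

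Values are TPM, read pairs per exon length scaled to the same total in each library, which allows levels of different genes to be compared. Between 11793509 and 24417789 read pairs on genes lay behind a library, as recovered from TPM and exon length. *Yy1* went from 95.3 ± 5.26 TPM (SD, n = 3) in control KD morulae to 8.65 ± 0.298 TPM (SD, n = 3) in *Yy1* KD, with groups that did not overlap. Differences were tested with limma on log2(TPM + 1) over the 17353 genes that reached 1 TPM in 3 or more of the libraries, and a gene was called at a Benjamini-Hochberg adjusted p under 0.05. Of the 10 trophectoderm factors, 8 passed this filter and 2, *Gata2* and *Elf5*, did not.

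Among these 8 genes, *Tfap2c* fell and the others were not called. *Cdx2*, *Gata3* and *Krt18* had group means close to each other, *Krt8* was lower in mean with overlapping groups, and *Id2* was higher in every *Yy1* KD library without passing the test. The share called was 1 of 8, all of it in the lower direction, beside 6.11% of all genes tested (4.2% lower and 1.92% higher). Over all genes these were 728 calls lower and 333 higher, and 548 lower and 388 higher after quantile normalization. The groups did not overlap for 2 of the 8, *Tfap2c* and *Id2*, beside 30.1% of all genes tested. The median log2 fold change was -0.07 for the 8 genes and -0.02 for all genes tested. Since whole morulae were pooled, fewer cells of a type and less RNA per cell cannot be told apart for any of these genes.

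**Figure D1:**
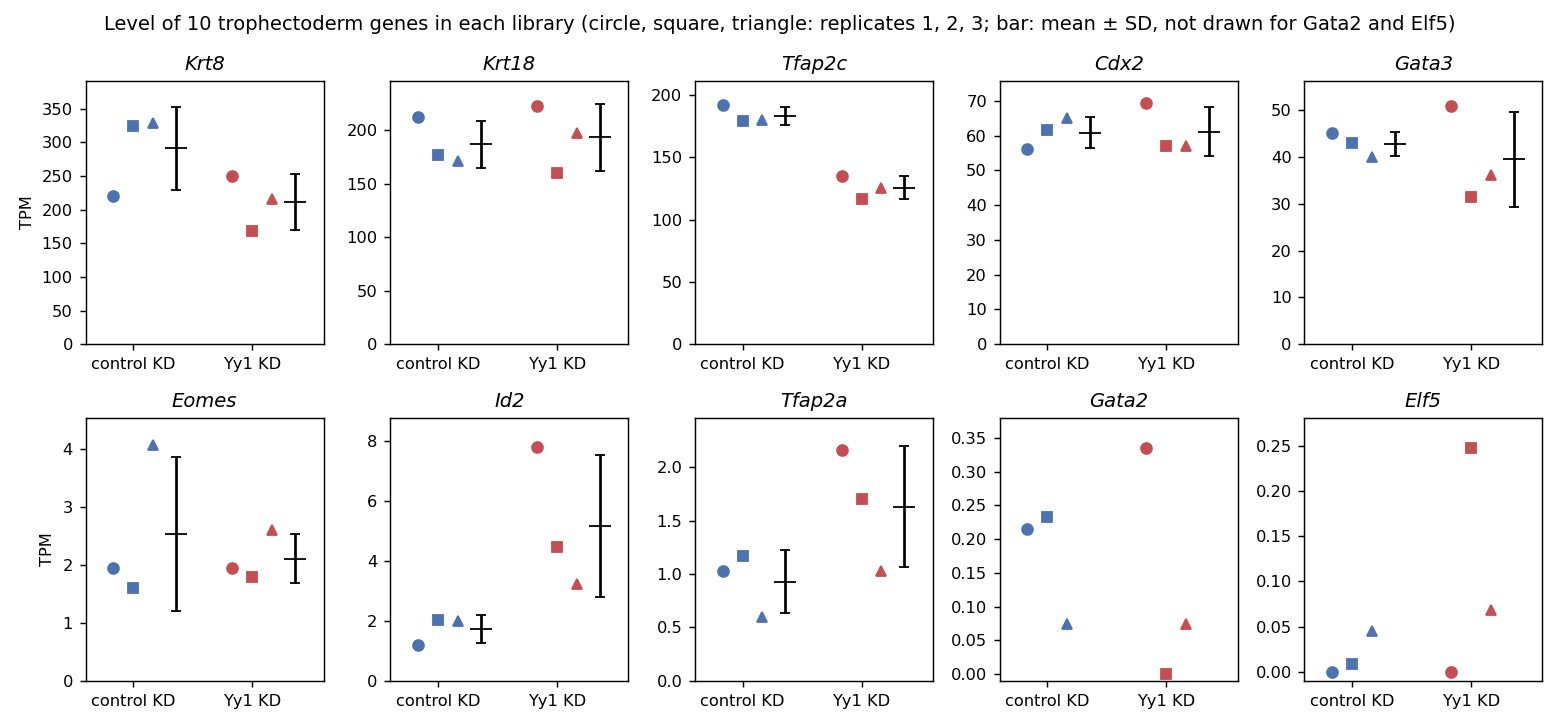
Level (TPM, linear axis) of each of the 10 genes in the 3 control KD libraries (blue) and the 3 *Yy1* KD libraries (red), with replicates 1, 2 and 3 as circle, square and triangle and the mean ± SD as a bar, except for *Gata2* and *Elf5*. *Tfap2c* and *Id2* are the genes whose groups do not overlap, *Krt8* has control KD replicate 1 among the *Yy1* KD libraries, and *Gata2* and *Elf5* stay under 0.35 TPM in every library.

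In control KD morulae *Krt8* stood at the top of the 10 genes (291 ± 61.8 TPM, SD, n = 3), above 97.2% of the genes tested, followed by *Krt18* (187 ± 22.3 TPM) and *Tfap2c* (183 ± 7.24 TPM), whose ranges overlapped each other. *Krt8* was above *Krt18* in 3 of 3 control KD libraries and their ranges did not overlap. *Cdx2* (60.9 ± 4.53 TPM) and *Gata3* (42.8 ± 2.63 TPM) came next and were separate from each other and from their neighbours. *Eomes* (2.54 ± 1.33 TPM) and *Id2* (1.73 ± 0.470 TPM) overlapped, and *Tfap2a* (0.929 ± 0.296 TPM) lay below them. *Gata2* (0.174 ± 0.0868 TPM) and *Elf5* (0.0179 ± 0.0243 TPM) closed the order.

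In *Yy1* KD morulae some neighbours in this order stood differently. *Tfap2c* was below *Krt18* in 3 of 3 libraries with ranges that no longer overlapped, whereas it was above *Krt18* in 2 of the 3 control KD libraries. *Id2* was above *Eomes* in 3 of 3 *Yy1* KD libraries, against 1 of 3 control KD libraries. *Krt8* was above *Krt18* in 3 of 3 *Yy1* KD libraries, but with overlapping ranges. *Gata2* was above *Elf5* in 2 of 3 *Yy1* KD libraries with overlapping ranges, against 3 of 3 control KD libraries without overlap.

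The promoters of these genes were read for short motifs of the factors concerned. RefSeq promoters (GRCm38.p6, the assembly of mm10, 250 bases before to 50 after each start) were at hand for 9 of the 10 genes, in 12 windows, with *Tfap2c* as the gene without an entry. The YY1 consensus GCCATNTT, which reads AANATGGC on the other strand, was in 0 of these 12 windows and in 6.05% of all 32851 promoters of the same length. The TEAD motif GGAATG, whose complement on the other strand reads CATTCC, were in 2 of 12 windows, those of *Elf5* and *Gata2*, beside 14.7% of all promoters. The GATA motif AGATAA, whose complement on the other strand reads TTATCT, were in 1 of 12 windows, that of *Krt8*, beside 11.2%. The AP-2 letters GCCNNNGGC, the same on both strands, were in 4 of 12 windows, those of *Cdx2*, *Gata3*, *Gata2* and *Krt18*, beside 16.6%. Binding was not measured here, no match overlapped another, and a match is a description of letters only.

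AP-2 is the family of TFAP2C and TFAP2A, so the stretches around its letters are shown for the 4 genes that hold them, 5′ to 3′ on the strand of the gene, with every AP-2 match that lies whole within a stretch in capitals. The *Cdx2* match starts 16 bases before the transcription start (chr5:147307246-147307275, minus strand), that of *Krt18* 83 bases before it (chr15:102028123-102028152, plus strand), and that of *Gata2* 222 bases before it (chr6:88198432-88198461, plus strand). The *Gata3* promoter has 3 matches, 246, 231 and 221 bases before its start, of which the first and the second lie in the stretch shown (chr2:9878821-9878850, minus strand).
*Cdx2*: atcacgtaagGCCGCTGGCctgggactccg
*Krt18*: cgatcctggcGCCCCCGGCtccggtggctg
*Gata2*: tgcagggtctGCCCACGGCgaaggtcccct
*Gata3*: ccctGCCCGCGGCccctctGCCCTAGGCgg

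The matches to the TEAD and GATA motifs are shown in the same way, since both factor families act on trophectoderm genes. The TEAD letters of *Gata2* lay 120 bases before the start (chr6:88198532-88198561, plus strand), those of *Elf5* 173 bases before it (chr2:103411913-103411942, plus strand), and the GATA letters of *Krt8* 239 bases before it (chr15:102004563-102004592, minus strand).
*Gata2*: cagcttgcgggtCATTCCcgaagtccagcg
*Elf5*: gctggaggctgcCATTCCaggaccctgcta
*Krt8*: aggagggcaggAGATAAgacagcttaggtc
Of the genes shown, *Cdx2*, *Gata3*, *Krt8* and *Krt18* were tested and not called, and *Gata2* and *Elf5* were not tested.

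*Cdx2* (ENSMUSG00000029646.3, chromosome 5, 147300805 to 147307270, minus strand, GRCm38), the caudal-type homeobox factor that holds down *Pou5f1* and *Nanog* in the trophectoderm, was at 56.1, 61.6 and 65.0 TPM in control KD and at 69.3, 57.1 and 57.0 TPM in *Yy1* KD morulae. Both groups covered the same range. The means were 60.9 ± 4.53 and 61.1 ± 7.11 TPM (SD, n = 3 each), and the log2 fold change was 0.0018 with a 95% interval from -0.26 to 0.26 (limma adjusted p = 0.995). Between 638 and 1439 read pairs lay behind each value. Among the trophectoderm genes tested and not called, the interval of *Cdx2* was the narrowest. The sign of its fold change turned with the library left out.

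*Cdx2* was also set against the genes it represses. The difference of log2(TPM + 1) between *Cdx2* and *Pou5f1*, the pluripotency factor OCT4, was -3.52 ± 0.0513 in control KD and -3.45 ± 0.101 in *Yy1* KD libraries (SD, n = 3 each, two-sided exact permutation p = 0.5). Between *Cdx2* and *Nanog* it was -2.36 ± 0.209 and -2.14 ± 0.128 (exact permutation p = 0.2). For genes far above the pseudocount, as here, such a difference within a library depends little on how libraries are scaled. *Pou5f1* itself was at 706 ± 32.4 and 678 ± 31.6 TPM, and *Nanog* at 322 ± 70.4 and 276 ± 52.5 TPM, with groups that overlapped for both.

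*Gata3* (ENSMUSG00000015619.10, chromosome 2, 9857078 to 9890034, minus strand), the GATA zinc finger factor that acts beside *Cdx2*, was at 45.3, 43.1 and 40.0 TPM in control KD and at 51.0, 31.5 and 36.1 TPM in *Yy1* KD morulae. The *Yy1* KD libraries lay on either side of the control KD range. The SD was 2.63 TPM over the control KD and 10.2 TPM over the *Yy1* KD libraries (n = 3 each), and the log2 fold change was -0.14 (95% interval -0.56 to 0.28, limma adjusted p = 0.684). Without *Yy1* KD replicate 2 it was 0.0069. *Gata3* shares 77 nt of exon with 9230102O04Rik on the same strand and 155 nt with Gm13256 on the opposite strand, and pairs there were divided among the genes without regard to strand.

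*Gata2*, its relative in the trophoblast, was at 0.215, 0.233 and 0.0745 TPM in control KD and at 0.335, 0 and 0.0748 TPM in *Yy1* KD morulae. These values stand on 6, 13 and 3 read pairs and on 14, 0 and 2 read pairs, and a count of 0 in *Yy1* KD replicate 2 allows up to 0.101 TPM by a floor of 3 read pairs, or 0.124 TPM at the upper end of the two-sided 95% exact Poisson interval. *Gata2* (chromosome 6, 88193891 to 88207032, plus strand) was thus below the filter and no difference was detectable at this depth. The difference of log2(TPM + 1) between *Gata3* and *Gata2* was 5.22 ± 0.0539 and 5.14 ± 0.133 (SD, n = 3 each, two-sided exact permutation p = 0.4). Since *Gata2* lies below the pseudocount, this difference depends on it, and the group difference turned from -0.08 to 0.28 with a pseudocount of 0.1. Of the other GATA genes, *Gata6*, a primitive endoderm factor, was at 111 ± 7.41 and 121 ± 3.32 TPM and *Gata1*, better known from blood, at 32.6 ± 2.63 and 33.9 ± 2.26 TPM (SD, n = 3 each). Neither was called (limma adjusted p = 0.416 and 0.786), and *Gata6* was higher in 3 of 3 *Yy1* KD libraries.

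*Tfap2c* (ENSMUSG00000028640.11, chromosome 2, 172549593 to 172558622, plus strand), which encodes the AP-2 gamma factor, was at 192, 179 and 180 TPM in control KD and at 135, 116 and 125 TPM in *Yy1* KD morulae. Every control KD library was above every *Yy1* KD library, and the gap between the groups was wider than the range within either. The mean went from 183 ± 7.24 to 126 ± 9.14 TPM (SD, n = 3 each), which is 68.5% of the control KD mean. The log2 fold change was -0.54 (standard error 0.08, 95% interval -0.73 to -0.36, limma adjusted p = 0.0174, two-sided exact permutation p = 0.1, the smallest that 3 libraries against 3 allow). Between 2285 and 6790.5 read pairs lay behind each value. In GENCODE vM21, *Tfap2c* shares no exonic sequence with another gene, while the authors counted on vM25 and divided pairs that fell on several genes. It was the most abundant transcription factor among the 10 genes in control KD and stayed so in *Yy1* KD morulae.

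The call of *Tfap2c* was lost in most fits with 5 libraries, and its size moved little. Without 1 library the log2 fold change was between -0.60 and -0.49. The adjusted p was 0.0343 without *Yy1* KD replicate 1, and it missed the threshold without control KD replicates 1, 2 and 3 (0.0654, 0.0554 and 0.0659) and without *Yy1* KD replicates 2 and 3 (0.0591 and 0.0525). Without a variance trend it was 0.0637.

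*Tfap2a* (ENSMUSG00000021359.16, chromosome 13, 40715302 to 40738376, minus strand), the AP-2 alpha factor, was at 1.02, 1.17 and 0.597 TPM in control KD and at 2.16, 1.71 and 1.03 TPM in *Yy1* KD morulae. *Yy1* KD replicate 3 lay inside the control KD range and the other two lay above it. The log2 fold change was 0.44 (95% interval -0.21 to 1.09, limma adjusted p = 0.39), on 21.8 to 82 read pairs a library. *Tfap2a* shares 380, 265 and 73 nt of exon with Gm26688, Gm47061 and Gm47067 on the opposite strand, and pairs from the strands cannot be told apart in these counts.

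The balance of the AP-2 pair was lower in each *Yy1* KD library than in each control KD library, at the limit of what the design can test. The difference of log2(TPM + 1) between *Tfap2c* and *Tfap2a* was 6.57, 6.38 and 6.82 in control KD and 5.43, 5.44 and 5.96 in *Yy1* KD libraries. The groups did not overlap, and the difference between their means was -0.98 (two-sided exact permutation p = 0.1, the smallest possible, and 0.5 after Benjamini-Hochberg adjustment over the 5 gene pairs compared). With a pseudocount of 0.1 in place of 1 it was -1.29, since *Tfap2a* is near the pseudocount. *Tfap2c* was still 62.4 to 122 times as abundant as *Tfap2a* in *Yy1* KD libraries, against 153 to 301 times in control KD libraries.

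**Figure D2:**
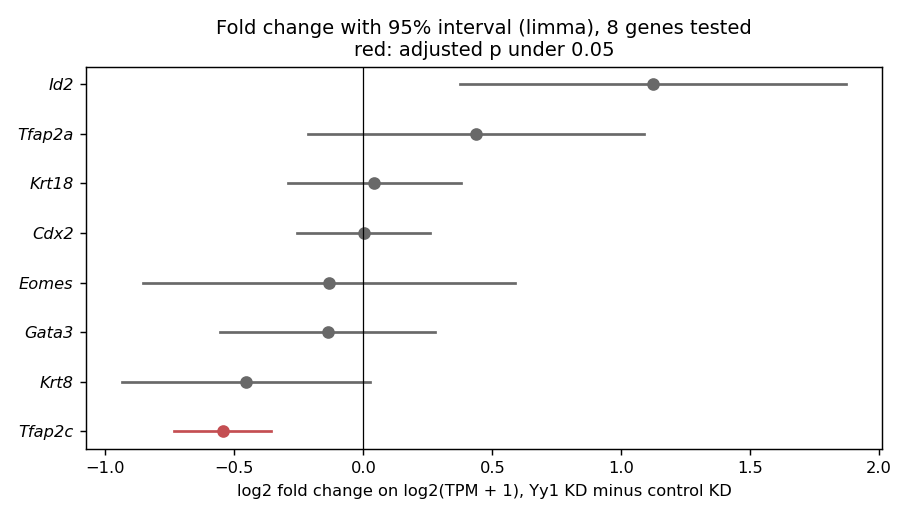
Log2 fold change (*Yy1* KD minus control KD, on log2(TPM + 1), n = 3 libraries each) of the 8 genes tested, with the 95% interval of limma as a line. *Tfap2c* is the gene called (red), the intervals of *Tfap2c* and *Id2* leave out 0, and that of *Cdx2* is centred near 0.

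*Krt8* (ENSMUSG00000049382.10, chromosome 15, 101996698 to 102004482, minus strand) encodes the type II keratin of simple epithelia and *Krt18* (ENSMUSG00000023043.7, chromosome 15, 102028180 to 102032027, plus strand) its type I partner, with which it forms the filament. *Krt8* was at 220, 325 and 329 TPM in control KD and at 250, 168 and 216 TPM in *Yy1* KD morulae. Control KD replicate 1 lay within the *Yy1* KD range, and the other two control KD libraries lay above it. The mean went from 291 ± 61.8 to 211 ± 41.0 TPM (SD, n = 3 each), and the log2 fold change was -0.45 (95% interval -0.93 to 0.03, limma adjusted p = 0.231). Without control KD replicate 1 it was -0.64 (limma adjusted p = 0.123).

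*Krt18* was at 212, 177 and 171 TPM in control KD and at 223, 160 and 197 TPM in *Yy1* KD morulae. The groups overlapped (log2 fold change 0.04, 95% interval -0.29 to 0.38, limma adjusted p = 0.889). The pair therefore did not keep the same proportion in all libraries. *Krt8* was 1.04, 1.84 and 1.92 times as abundant as *Krt18* in the control KD libraries and 1.12, 1.05 and 1.10 times in the *Yy1* KD libraries. On the log2 scale this proportion was 0.62 ± 0.495 in control KD and 0.12 ± 0.0499 in *Yy1* KD (SD, n = 3 each), and it did not differ beyond the spread (two-sided exact permutation p = 0.4), with control KD replicate 1 below all 3 *Yy1* KD libraries. Leaving that library out moved the difference of the means from -0.50 to -0.78.

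The technical context of *Krt8* was measured as well. It shares 101 nt of exon with Gm36026 on the opposite strand. Its processed pseudogene *Krt8-ps* (chromosome 7, 23357125 to 23358069) held 2 to 17.5 read pairs a library, against 1810 to 6570 for *Krt8*, and was not called (limma adjusted p = 0.945).

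**Figure D3:**
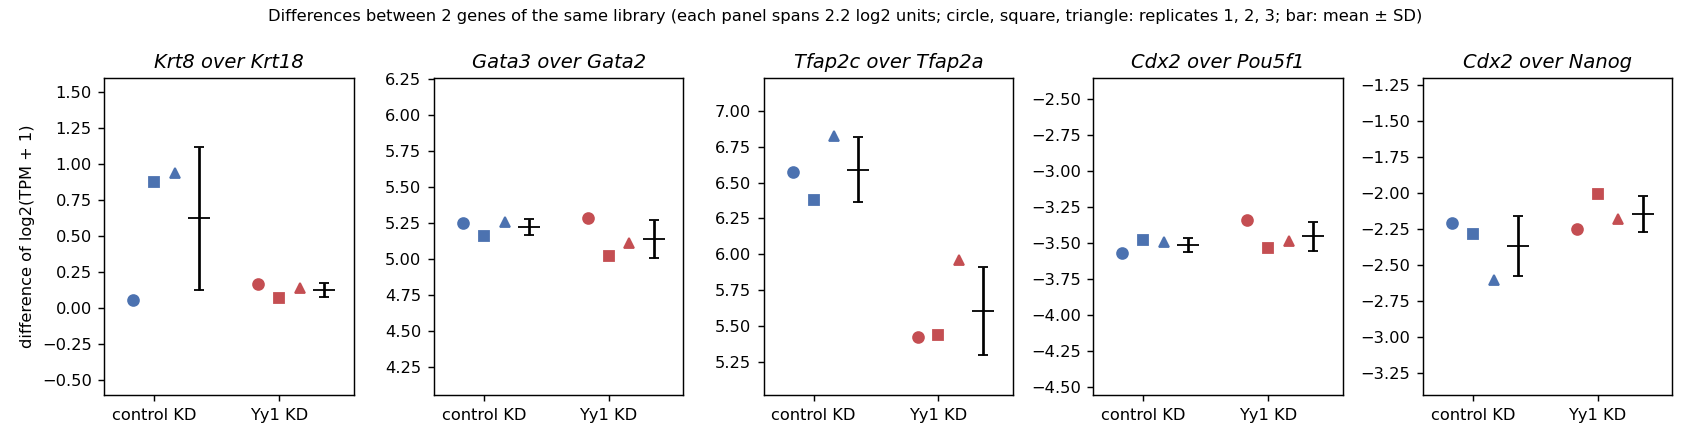
Difference of log2(TPM + 1) between 2 genes of the same library for the 5 pairs compared, with control KD in blue, *Yy1* KD in red, replicates 1, 2 and 3 as circle, square and triangle, and the mean ± SD as a bar. Each panel spans the same log2 distance, *Tfap2c* over *Tfap2a* is the pair whose groups do not overlap, and *Krt8* over *Krt18* splits the control KD libraries into 0.050 for replicate 1 and 0.88 and 0.94 for the others.

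*Id2* (ENSMUSG00000020644.9, chromosome 12, 25093799 to 25097140, minus strand) encodes an inhibitor of basic helix-loop-helix factors, which it binds without contacting DNA, and is among the earliest markers of outer cells. It was at 1.19, 2.03 and 1.98 TPM in control KD and at 7.79, 4.47 and 3.23 TPM in *Yy1* KD morulae. All 3 *Yy1* KD libraries were above all 3 control KD libraries, with *Yy1* KD replicate 1 farthest from them. The mean went from 1.73 ± 0.470 to 5.16 ± 2.36 TPM (SD, n = 3 each), 2.98 times the control KD mean. The log2 fold change was 1.12 (standard error 0.31, 95% interval 0.37 to 1.87), and *Id2* did not pass the test (limma adjusted p = 0.0893, two-sided exact permutation p = 0.1, the smallest possible).

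The depth behind *Id2* was low. The control KD values stood on 15, 51 and 36 read pairs and the *Yy1* KD values on 147, 60 and 39. The 95% counting interval (exact Poisson) of control KD replicate 2 ran from 1.51 to 2.66 TPM and that of *Yy1* KD replicate 3 from 2.30 to 4.41 TPM, so that the nearest libraries of the groups overlapped in counting error while the interval of *Yy1* KD replicate 1, from 6.58 to 9.15 TPM, overlapped that of no other library. In limma-voom on the recovered read pairs, an alternative chosen after the data had been seen that weights values by their depth, the log2 fold change was 1.54 and *Id2* was called (adjusted p = 0.0303), beside 12.3% of the genes tested in that fit (4.78% higher). *Id2* was not called in any other setting.

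The other inhibitors of the family, chosen after their values were seen, did not share one direction. *Id1* was at 4.01 ± 1.59 and 3.30 ± 1.70 TPM and *Id3* at 30.1 ± 7.23 and 35.0 ± 14.1 TPM (SD, n = 3 each), both with overlapping groups. *Id4*, below the filter and not tested, was at 0.368, 0.495 and 0.453 TPM in control KD and at 1.55, 0.693 and 1.66 TPM in *Yy1* KD morulae. Its groups did not overlap, and its *Yy1* KD mean was 2.97 times the control KD mean. *Id3* was thus the most abundant of the 4 in both groups.

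*Eomes* (ENSMUSG00000032446.14, chromosome 9, 118478212 to 118486132, plus strand), the T-box factor of trophoblast stem cells, was at 1.95, 1.61 and 4.06 TPM in control KD and at 1.94, 1.79 and 2.60 TPM in *Yy1* KD morulae. Control KD replicate 3 stood above the other 5 libraries, which lay close together. The log2 fold change was -0.13 (95% interval -0.85 to 0.59, limma adjusted p = 0.833) and turned to 0.16 without that library. Between 41 and 126 read pairs lay behind each value, and the interval is too wide to bound a change of *Eomes* closely. *Eomes* shares 118 nt of exon with Gm33460 on the opposite strand.

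*Elf5*, the ETS factor that holds the trophoblast fate after implantation, was listed at 0, 0.00824 and 0.0456 TPM in control KD and at 0, 0.248 and 0.0687 TPM in *Yy1* KD morulae. It was at or near 0 in both groups and was not tested. The version of this gene in the table (ENSMUSG00000027186.15) differed from that of the GENCODE annotation used here. Its span in that annotation and its read pairs are therefore not given, and the promoter position above is that of RefSeq. Among the related ETS genes *Elf3*, an epithelial factor, was the most abundant, at 257 ± 33.2 and 192 ± 38.1 TPM (SD, n = 3 each, limma adjusted p = 0.155), with overlapping groups.

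The genes that act upstream of *Cdx2* and *Gata3* were all expressed, and 17 of 17 listed regulators were tested. Of these, 2 fell, 1 rose and 14 were not called, beside 4.2% lower and 1.92% higher among all genes tested. The groups did not overlap for 5 lower and 1 higher of the 17, beside 17.2% and 12.9% of all genes tested. At an unadjusted limma p under 0.05 there were 3 lower and 1 higher, beside 14.4% and 9.35% of all genes tested. The regulators *Tead4*, *Klf5* and *Yap1*, chosen after their values were seen, averaged 116 ± 8.91, 344 ± 21.9 and 49.6 ± 3.75 TPM over control KD libraries and 113 ± 12.3, 334 ± 27.3 and 43.4 ± 3.05 TPM over *Yy1* KD libraries (SD, n = 3 each), each with overlapping groups. The relatives *Tead1* and *Tead3*, likewise chosen after their values were seen, were lower in every *Yy1* KD library, *Tead1* at 27.4 ± 1.24 and 20.3 ± 1.34 TPM and *Tead3* at 1.66 ± 0.419 and 0.819 ± 0.0763 TPM, and were not called (limma adjusted p = 0.0577 and 0.222). *Tead3* reached 1 TPM in control KD libraries only, so the filter itself favoured a lower *Yy1* KD level. It is among the 5 lower regulators counted above. *Tead2*, a TEAD4 relative, was at 10.9, 10.9 and 11.6 TPM in control KD and at 5.79, 2.92 and 4.97 TPM in *Yy1* KD morulae (log2 fold change -1.16, standard error 0.22, limma adjusted p = 0.0356). *Lats1*, a Hippo kinase that keeps YAP out of the nucleus, went from 15.5 ± 1.81 to 8.70 ± 1.72 TPM (limma adjusted p = 0.0468, log2 fold change -0.77).

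*Amot*, a scaffold that activates LATS kinases at junctions of inner cells, rose from 72.6 ± 7.21 to 97.0 ± 1.52 TPM (limma adjusted p = 0.0454, log2 fold change 0.42). All 3 calls were close to the threshold. *Tead2* and *Lats1* were called without *Yy1* KD replicate 1 (limma adjusted p = 0.0489 and 0.0466). Without any other single library the limma adjusted p was between 0.0614 and 0.117 for *Tead2* and between 0.102 and 0.135 for *Lats1*, and without each of the 6 libraries in turn it was between 0.0637 and 0.125 for *Amot*. *Lats1* missed the threshold with median-ratio scaling and with quantile normalization (limma adjusted p = 0.0582 and 0.0726). Over the 17 regulators the log2 fold changes had a median of -0.15.

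**Figure D4:**
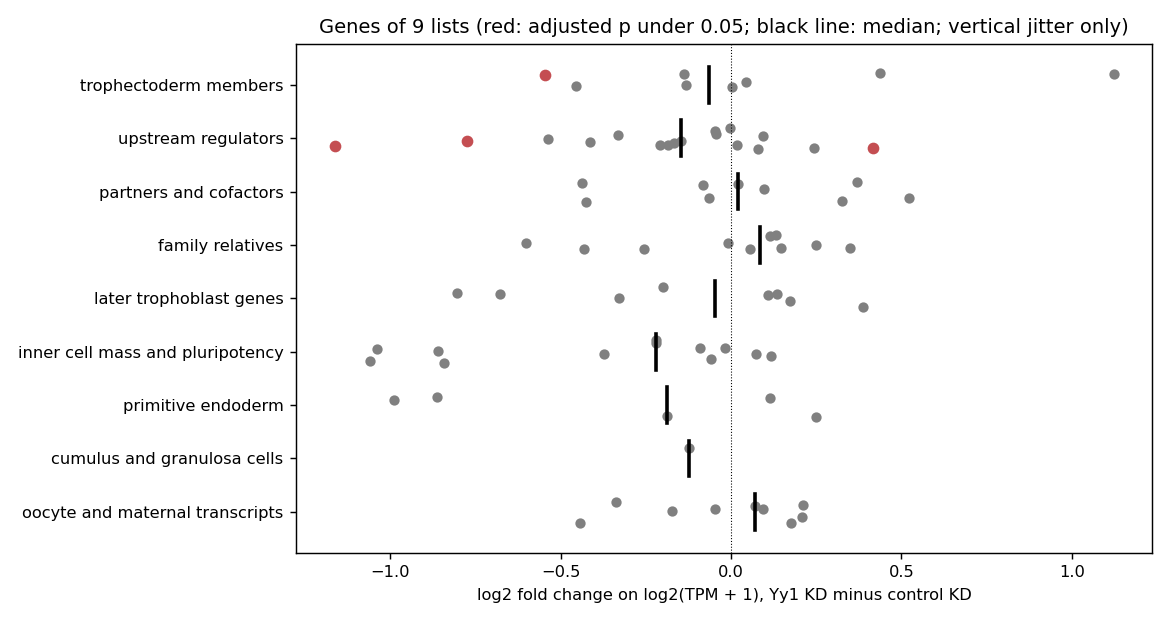
Log2 fold change (*Yy1* KD minus control KD, on log2(TPM + 1)) of each tested gene of the 9 lists, with called genes in red, other genes in grey and the median of a list as a black line (vertical position within a row is random). The 4 called genes are *Tfap2c*, *Tead2*, *Lats1* and *Amot*, and the medians of all lists lie between -0.22 and 0.09.

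Partners and cofactors of the trophectoderm proteins were not called in any of 9 tested genes of 12, with a median log2 fold change of 0.02. *Cited1*, a transcriptional coactivator of the CITED family, was at 65.7 ± 7.43 and 85.4 ± 12.6 TPM (SD, n = 3 each, limma adjusted p = 0.164). It was higher in every *Yy1* KD library, but barely so in replicate 1 (70.9 TPM, against 70.7 TPM in control KD replicate 2). *Zfpm1*, the GATA cofactor FOG1, was at 59.7 ± 8.04 and 63.6 ± 2.22 TPM, and *Dsp*, the desmosome protein that anchors keratin filaments, at 51.5 ± 11.1 and 37.5 ± 5.99 TPM (limma adjusted p = 0.647 and 0.2). Relatives of the 10 genes were not called by limma either, in 10 tested genes of 22 (median 0.09). Among the relatives below the filter, *Krt7*, *Id4*, *Tfap2b* and *Ehf*, picked once their values were known, were higher in every *Yy1* KD library. The others below the filter had overlapping groups, and 12.9% of all genes tested were higher without overlap. *Krt7* averaged 0.398 TPM in control KD (15 to 32 read pairs) and 1.21 TPM in *Yy1* KD (32 to 81). At an unadjusted limma p under 0.05 there were 4 partners (2 higher and 2 lower) and 2 relatives (both lower), beside 9.35% of all genes tested higher and 14.4% lower at that threshold, and limma-voom called 0 of either list, beside 12.3% of all genes in that fit.

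Of 14 genes linked to the later trophoblast, 8 were tested and none was called (median log2 fold change -0.05). *Hand1*, a basic helix-loop-helix factor of giant cells, was at 282 ± 31.4 and 250 ± 69.1 TPM in the control KD and *Yy1* KD groups, *Esrrb*, a nuclear receptor of stem cells, at 80.5 ± 5.97 and 91.0 ± 10.3 TPM, and *Sox21* at 18.7 ± 1.40 and 25.2 ± 6.78 TPM (SD, n = 3 each; limma adjusted p = 0.584, 0.385 and 0.263). *Tpbpa*, *Prl3d1* and *Prl2c2*, which mark the spongiotrophoblast and giant cells of the placenta, were listed at 0 in all 6 libraries. At an unadjusted limma p under 0.05 there was 1 gene of this list, *Cdh3*, the P-cadherin gene, beside 23.8% of all genes tested, and limma-voom called it lower, beside 7.56% of all genes in that fit. It was at 3.56 and 1.61 TPM on average (limma adjusted p = 0.0515).

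Markers of other cell types were read in the same libraries, and how far they bear on the trophectoderm genes was not tested. Of the 12 inner cell mass and pluripotency genes, 12 were tested and none was called, with 10 lower and 2 higher in mean and a median log2 fold change of -0.22. The groups did not overlap for 7 of these 12, all lower in *Yy1* KD, beside 17.2% of all genes tested in that direction. *Dppa3*, *Dppa5a* and *Pou5f1* were the most abundant, with *Dppa3*, a maternal and germline factor, at 4539 ± 322 and 4765 ± 96.7 TPM and *Dppa5a*, an RNA-binding protein of pluripotent cells, at 863 ± 74.6 and 742 ± 72.5 TPM. At an unadjusted limma p under 0.05 there were 5 of the 12, all lower, beside 14.4% of all genes tested in that direction. In limma-voom 2 were called lower, beside 7.56% of all genes in that fit, *Fgf4*, the growth factor of the inner cell mass, and *Tdgf1*, a NODAL coreceptor. *Fgf4* was at 15.9 and 7.06 TPM on average and *Tdgf1* at 60.8 and 32.5 TPM (limma adjusted p = 0.0607 and 0.108). The summed level of the list was 7253 to 7805 TPM among control KD and 7247 to 7672 TPM among *Yy1* KD libraries. Most of this sum was *Dppa3*, which is 1 of the 2 genes higher in mean. The sum therefore says little about the 10 genes lower in mean.

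The summed level of the 10 trophectoderm genes was 729 to 791 TPM among control KD and 542 to 739 TPM among *Yy1* KD libraries, most of it from the keratins and *Tfap2c*. Primitive endoderm markers summed to 242 to 264 and 223 to 239 TPM, with 5 of 9 tested, none called and a median log2 fold change of -0.19. At an unadjusted limma p under 0.05 there were 2, *Col4a1* and *Pdgfra*, a receptor kinase, both lower, beside 14.4% of all genes tested in that direction, and limma-voom called both, beside 7.56% of all genes in that fit. *Gata6* and *Dab2* led that list, while 4 of the 9 genes, among them the defining *Sox17*, *Sox7* and *Foxa2*, stayed under 1 TPM in every library. *Dab2*, an endocytic adaptor, was at 87.1 ± 8.27 and 76.6 ± 11.1 TPM, and *Col4a1*, a basement membrane collagen, at 34.3 ± 14.4 and 16.0 ± 3.09 TPM (SD, n = 3 each; limma adjusted p = 0.429 and 0.107).

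Cells that surround the oocyte left little trace. Of 11 cumulus and granulosa genes, 5, *Has2*, *Ptx3*, *Tnfaip6*, *Fshr* and *Cyp19a1*, were listed at 0 in all libraries, 1 was tested and none was called, and the list summed to 8.77 to 11.1 TPM among control KD and 9.31 to 10.6 TPM among *Yy1* KD libraries. Most of that sum was *Amhr2*, the receptor of anti-Müllerian hormone, at 8.91 ± 0.979 and 8.09 ± 0.819 TPM. *Foxl2* was at 0.662 ± 0.105 and 0.627 ± 0.387 TPM, and *Inha* was above 0 in *Yy1* KD replicates 1 and 3 (0.350 and 1.78 TPM). At an unadjusted limma p under 0.05 there were 0 cumulus and 0 oocyte genes, beside 23.8% of all genes tested. Limma-voom called 0 of either, beside 12.3% of all genes in that fit. With 1 cumulus gene tested, these counts say little about that list. Of 10 oocyte genes, 9 were tested and none was called (median log2 fold change 0.07), and the list summed to 58.1 to 81.2 TPM among control KD and 62.9 to 82.3 TPM among *Yy1* KD libraries. The growth factor *Gdf9* was at 18.4 ± 3.08 and 20.7 ± 0.659 TPM, and the zona pellucida genes *Zp2* and *Zp3* at 9.01 ± 2.10 and 10.6 ± 2.41 TPM and at 9.97 ± 1.60 and 7.20 ± 2.17 TPM (SD, n = 3 each).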

How the data were processed

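RNA-seq was performed on 3 control KD and 3 *Yy1* KD libraries, grouped and numbered by their titles. The authors trimmed reads (Trim Galore 0.6.7), aligned them to mm10 (HISAT2 2.2.1), removed ribosomal RNA reads (bedtools), counted pairs per GENCODE vM25 gene with featureCounts 2.0.1, dividing pairs on several genes and ignoring strand, and deposited TPM. They tested counts with edgeR, which is not suited to TPM, so limma 3.58.1 (R 4.3.3) was used on log2(TPM + 1) with a variance trend and without a replicate block. Fold changes on this scale understate changes of low genes. Read pairs were recovered from TPM and the exon length of GENCODE vM21 (54312 of 55364 identifiers matched). Of recovered values under 20 pairs, 80.6% to 81.6% were within 0.01 of a whole number. Intervals on read pairs cover counting error alone.

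The 10 genes and all lists were chosen with earlier results of these data known, and no list is independent evidence. The lists were written from general knowledge. The genes named were the 10 factors, *Yy1*, the genes of the pairs, and from each list the genes called or else the 3 with the highest mean TPM. *Cdh3*, *Fgf4*, *Tdgf1* and *Pdgfra* were picked once their values were known, for their unadjusted p or their limma-voom call. The other list genes named are marked as picked once their values were known, or are near 0. The alternatives changed the pseudocount (0.1), the filter (none, or 5 TPM on average), the scaling (median-ratio or quantile) or the variance model (without a trend, robust, with library weights, with a replicate block), or left out each library in turn. Further fits were added after the data had been seen, limma-voom on the recovered read pairs and a fit on genes of 200 nt or longer. Tables and plots used pandas 2.3.3 and matplotlib 3.10.9 in Python 3.11.15, and permutation tests scipy 1.17.1.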

Additional observations from a re-analysis of the deposited data

How the results depend on the processing

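The number of trophectoderm genes called was 1, and 0 without a variance trend, 2 with limma-voom on recovered read pairs (*Tfap2c* and *Id2*) and 0 to 1 when a library was left out. Of the 69 tested genes of the other lists 3 were called, beside 6.11% of all genes tested. The count was 0 without a filter (347 of 35852 genes in all) and 5 with a mean TPM of at least 5 (1219 of 10675). It was 1 without a variance trend (514 of 17353), 8 with limma-voom (2089 of 16931) and 5 among genes of at least 200 nt (1435 of 16311). When a library was left out it was 0 to 2, beside 73 to 412 genes in all. Nothing in the labels says whether libraries of equal number share a batch. The correlations of their deviations from the group means were -0.0039, 0.032 and 0.075, beside -0.071 to 0.041 for unequal numbers. With 3 libraries a group these values cannot settle whether a batch is shared. With a replicate block 0 genes of the other lists and 1 trophectoderm gene were called, with *Tfap2c* at an adjusted p of 0.0491 in limma, and 287 genes in all against 1061.

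*Yy1* was called under every alternative (log2 fold change -3.45 to -3.26). The sign of *Cdx2* turned with weights per library (-0.011), among genes of at least 200 nt (-0.026) and when a library was left out (-0.091 to 0.050), that of *Gata3* when a library was left out (-0.33 to 0.0069), that of *Eomes* likewise (-0.32 to 0.16) and that of *Krt18* likewise (-0.065 to 0.17). None of these values was called, and the cause was not tested. With a pseudocount of 0.1 the difference of *Gata3* to *Gata2* moved from -0.08 to 0.28, as *Gata2* lies below the pseudocount of 1. That of *Tfap2c* to *Tfap2a* moved from -0.98 to -1.29, as *Tfap2a* lies near it. Genes called over the whole table numbered 2089 with limma-voom, 347 without a filter, 514 without a variance trend and 73 to 412 when a library was left out. Depth limits the low genes, *Elf5*, *Gata2*, *Tfap2a*, *Id2* and *Eomes*.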
